A study of Mus musculus with 16 samples.

Results

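Apoe, Lpl, Abca1, Abcg1, Ch25h, Soat1, Fabp5, Trem2 and Tyrobp are 9 genes through which microglia, the resident macrophages of the brain, bind, move and store lipid. Their 9 lines were taken by gene symbol out of the 53700 gene lines deposited for each library, and 8 of the 9 passed the filter on low counts, Fabp5 being the exception. The genes were chosen by their measured levels in these 4 groups, with earlier results of these data known, so their differences between genotypes are given as a description, without p-values. RNA was sequenced in bulk from microglia sorted from whole brains of mice on a cross of C57Bl6J and FVB, labelled as knockout (KO) for Ercc1 or as control (WT). Ercc1 encodes a subunit of a nuclease that repairs damaged DNA, and the series title speaks of accelerated aging. The 4 groups were 6-week-old WT, 6-week-old KO, 12-week-old WT and 12-week-old KO mice, with 4 libraries each. The labels give no allele beyond the genotype. The live cells sorted had high CD11b, intermediate CD45 and no Ly6c. Nothing in the labels says that each library came from a separate animal, so the spread between libraries may be partly technical.

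The products of these genes form a circuit. Lipoprotein lipase, from Lpl, frees fatty acids from lipoproteins, and fatty acid binding proteins such as that of Fabp5 carry them inside the cell. Cholesterol leaves the cell through the transporters ABCA1 and ABCG1 onto lipoproteins that apolipoprotein E helps to form, while SOAT1 esterifies what is stored in droplets and CH25H turns cholesterol into 25-hydroxycholesterol, an oxysterol. TREM2 is a surface receptor for lipids and lipoproteins, apolipoprotein E among them, and it signals through the adaptor TYROBP. In mouse models of neurodegeneration, higher Apoe, Lpl and Tyrobp mark disease-associated microglia (DAM), whose later stage needs Trem2.

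Total counts ranged from 7882182 to 22142972 per library. The level of Ercc1 followed the labels: at 6 weeks it was 18.8 ± 7.91 CPM in WT and 3.63 ± 0.803 in KO, and at 12 weeks 20.7 ± 19.2 in WT and 4.28 ± 2.80 in KO (SD, n = 4 each). CPM is the gene's share of the library's counts, on the usual counts-per-million scale, with library sizes scaled by TMM. All 10 defining markers of microglia were detected in every group, with summed levels at 6 weeks of 69636 to 76158 CPM in WT and 58816 to 69119 in KO, and at 12 weeks of 62909 to 69461 in WT and 51685 to 53917 in KO. Of these markers, P2ry12 fell at both ages and Cx3cr1 at 12 weeks, past the threshold given below. Over all genes 0.0761% passed as lower at 6 weeks and 0.954% at 12 weeks. A positive log2 change was seen in 3 of the 10 at 6 weeks (median -0.20) and in 2 at 12 weeks (median -0.30). The 6-week call was lost in some refits that left out 1 library. At 12 weeks 1 marker passed as higher and 2 as lower without WT replicates 3 and 8. Replicate 5_6 of 12-week WT, labelled male, held both Xist (350.3 CPM on unscaled totals) and transcripts of 4 Y-linked genes (113 CPM together). Replicates 3 and 8 of the same group, which stood apart in earlier results of these data, were left out together as an alternative. The 12-week changes of the 8 testable genes are therefore given with and without them.

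In KO microglia 4 of the 8 testable genes, Apoe, Lpl, Ch25h and Tyrobp, passed the threshold as higher at 6 weeks, and the same 4 did so at 12 weeks. The threshold was an adjusted p of 0.05 in edgeR's quasi-likelihood test over 17090 genes. Over all genes tested, 0.796% passed as higher at 6 weeks and 2.03% at 12 weeks. Every one of the 8 had a positive log2 change at both ages, with a median of 0.48 at 6 weeks and 0.69 at 12 weeks, beside medians of -0.02 and -0.03 over all genes. The KO libraries lay above all WT libraries for 6 of the 8 at 6 weeks and for 7 of the 8 at 12 weeks, against 4.92% and 5.13% of all genes. The choice of the genes used these contrasts, so nothing further is read from the counts. With DESeq2 in place of edgeR, 5 passed at 6 weeks and 7 at 12 weeks, where 2.14% and 6.77% of all genes did. Without the low-count filter 7 of 9 passed at 12 weeks, Fabp5 among them, where 3.66% of 29343 genes did. Together the 9 genes took 0.383% ± 0.0222 of all counts in WT and 0.732% ± 0.0185 in KO at 6 weeks, and 0.400% ± 0.0367 in WT and 1.06% ± 0.153 in KO at 12 weeks (SD, n = 4 each).

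**Figure D1:**
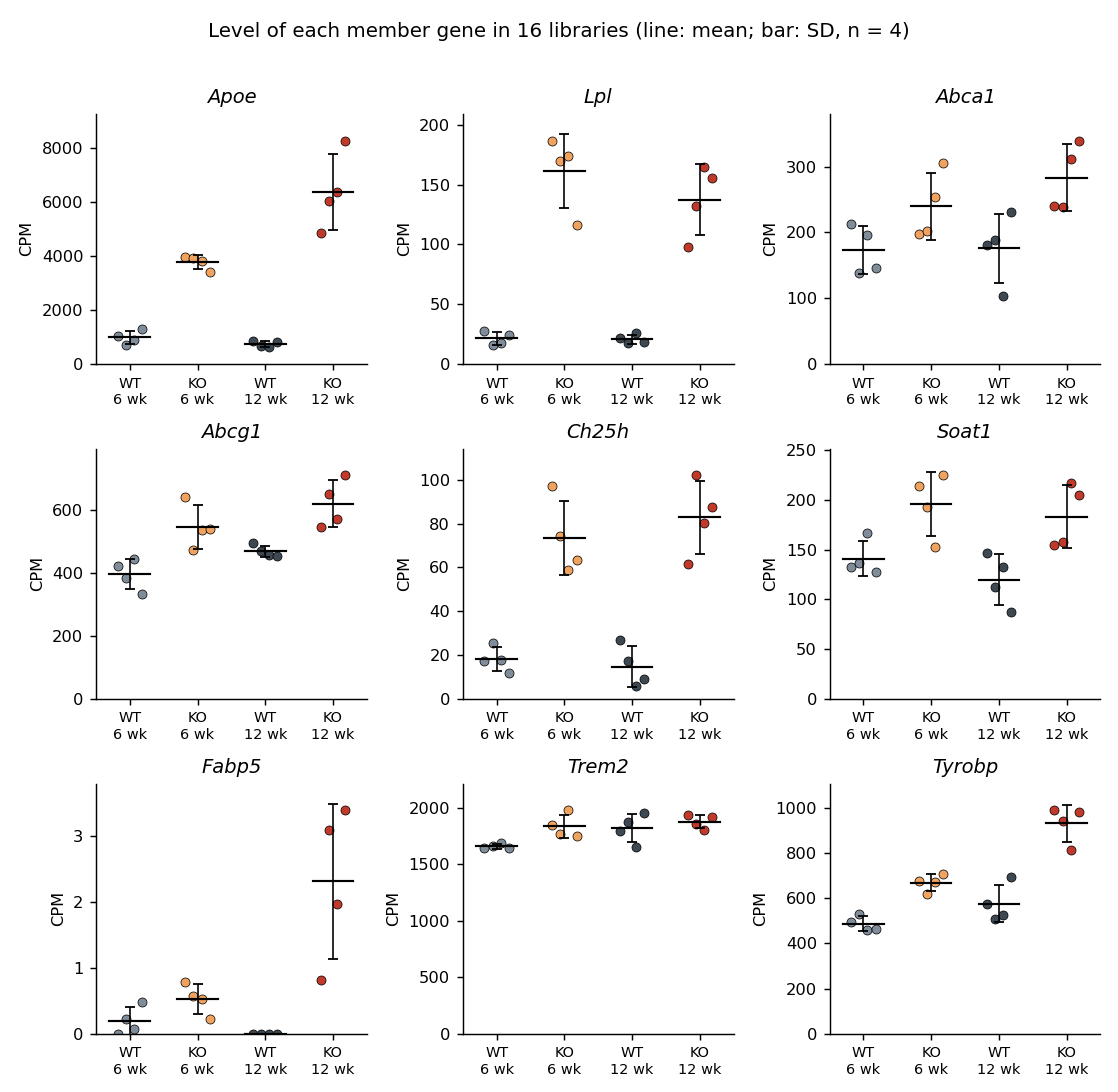
Level of each gene in every library, in CPM on a linear axis that starts at 0, with points for libraries, a line for the mean and a bar for the SD (n = 4). Apoe, Lpl and Ch25h separate the genotypes at both ages, Trem2 stays between 1647 and 1979.8 CPM in all 16 libraries, and Fabp5 stays below 4 CPM.

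Apoe (ENSMUSG00000002985), the main lipid carrier made by glia, was the most abundant of the 9 in KO. The 4 WT libraries at 6 weeks held 1049.6, 719, 898 and 1289 CPM, and the 4 KO libraries held 3965, 3921, 3832 and 3423 CPM. At 12 weeks the WT libraries held 853, 655, 611 and 799.5 CPM and the KO libraries 4875, 6032, 6362 and 8287 CPM. Every KO library lay above every WT library, and every 12-week KO library also lay above every 6-week KO library. The log2 change between genotypes was 1.94 ± 0.18 (SE) at 6 weeks and 3.13 ± 0.19 at 12 weeks, a fold of 3.84 and 8.74. Without WT replicate 5_6 the 12-week change was 3.07, and without WT replicates 3 and 8 it was 3.40. Apoe is also made by other brain cells. Markers of border-associated macrophages moved the same way: all 9 were detected in every group, and their summed level at 6 weeks was 54.7 to 98.3 CPM in WT and 144 to 306 in KO, and at 12 weeks 10.7 to 57.5 in WT and 115 to 196 in KO. All 9 had a positive log2 change at both ages, with medians of 1.70 at 6 weeks and 2.03 at 12 weeks. In edgeR Ms4a7 alone passed the threshold, at 12 weeks. No marker of the list did at that age without WT replicates 3 and 8. At 6 weeks 4 had an unadjusted p under 0.05 and DESeq2 called 1, beside 7.31% and 2.14% of all genes. At 12 weeks these were 5 and 4, beside 14.4% and 6.77%. The refit without a low-count filter called 4 at each age, beside 1.2% and 3.66%. Markers of monocytes, 4 of 9 tested, summed at 6 weeks to 9.41 to 24.0 CPM in WT and 10.004 to 48.5 in KO, and at 12 weeks to 4.43 to 19.7 in WT and 20.0 to 44.96 in KO, with no overlap at 12 weeks, where none of the 4 passed in edgeR, 2 had an unadjusted p under 0.05 and DESeq2 called 2. The monocyte markers Ly6c2 and Chil3 were at 0 in 6-week KO and in both 12-week groups, but the sort took cells without Ly6c. Fn1, of the same list, had 0 counts in 12-week WT and 112 in 12-week KO. Of the 4 tested monocyte markers, 4 had a positive log2 change at 6 weeks (median 1.38) and 3 at 12 weeks (median 2.40). The part of these cells in the changes of the 9 genes was not tested, and in sorted bulk RNA the number of cells of a type and the RNA per cell cannot be told apart. Markers of astrocytes, which make Apoe in quantity, summed at 6 weeks to 327 to 437 CPM in WT and 277 to 371 in KO, and at 12 weeks to 260.2 to 389 in WT and 296 to 404 in KO, so their summed ranges overlapped between genotypes. Among them Gfap had 0 counts in 6-week WT and 379 in 6-week KO. Of the 9 astrocyte markers tested, edgeR called 0 at either age and DESeq2 called 1 at 6 weeks, as higher. Their median log2 changes were 0.12 at 6 weeks and -0.02 at 12 weeks.

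The share of counts from mitochondrial genes also differed between the groups. At 6 weeks it was 0.182% to 0.253% in WT and 0.328% to 0.405% in KO, at 12 weeks 0.276% to 0.385% in WT and 0.491% to 0.680% in KO, and its part in the results was not tested.

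The reference table of gene starts, which belongs to build GRCm38.p6 and not to the GRCm39 of the counts, gives windows for 5 of the 9 genes and 3 of them for Apoe. The 250 bases before the start are shown for Apoe (the most upstream window) and Ch25h, which rose, and for Trem2, which did not pass the threshold. Sequences are from RefSeq, 5′ to 3′ on the strand of the gene. Capitals mark the searched motifs: AGGTCA (the motif bound by each partner of a liver X receptor pair), its direct repeat with 4 bases between (DR4), GAGGAA (a core of the macrophage factor PU.1), CACGTG (an E-box), the sterol element TCACNCCAC, and TATAAA, all on both strands.
Apoe, chr7:19699189-19699438, minus strand: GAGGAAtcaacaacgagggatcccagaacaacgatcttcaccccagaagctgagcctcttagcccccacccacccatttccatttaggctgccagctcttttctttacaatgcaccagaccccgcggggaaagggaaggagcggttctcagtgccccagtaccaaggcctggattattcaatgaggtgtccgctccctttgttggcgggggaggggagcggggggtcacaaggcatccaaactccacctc
Ch25h, chr19:34475149-34475398, minus strand: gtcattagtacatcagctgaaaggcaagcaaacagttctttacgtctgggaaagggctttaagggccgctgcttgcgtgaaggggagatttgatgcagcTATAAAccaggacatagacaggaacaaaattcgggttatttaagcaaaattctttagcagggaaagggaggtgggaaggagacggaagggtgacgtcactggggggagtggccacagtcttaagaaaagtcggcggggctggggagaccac
Trem2, chr17:48346151-48346400, plus strand: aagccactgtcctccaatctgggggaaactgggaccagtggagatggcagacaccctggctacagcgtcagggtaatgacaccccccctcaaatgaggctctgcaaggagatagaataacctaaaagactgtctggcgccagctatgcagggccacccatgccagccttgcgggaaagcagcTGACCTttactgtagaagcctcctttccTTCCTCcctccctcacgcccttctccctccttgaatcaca
The Apoe window shown held GAGGAA and the Ch25h window TATAAA. Of the Apoe windows not shown, window 2 held TATAAA on both strands and window 3 held GAGGAA. The Abca1 window, also not shown, held CACGTG and TATAAA, and the Soat1 window held none of the motifs. The Trem2 window held the reverse complements of AGGTCA and of GAGGAA. No window of Abca1, Apoe, Ch25h, Soat1 or Trem2 held the exact letters of the direct repeat, which 0.0152% of 32851 windows of this length held. Repeats that differ from these letters were not searched for, so the absence of an exact match does not show that a window lacks a liver X receptor site. GAGGAA occurred in 23.3% of these windows, AGGTCA in 14.02%, TATAAA in 12.4%, CACGTG in 6.02% and the sterol element in 1.05%. These matches describe the letters only, and no binding was measured.

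Lpl (ENSMUSG00000015568) encodes the secreted lipase that hydrolyses triglycerides of lipoproteins. The WT libraries held 27.5, 15.6, 17.9 and 24.4 CPM at 6 weeks and 21.4, 17.4, 25.8 and 18.1 CPM at 12 weeks. The KO libraries held 187, 169.6, 174 and 116 CPM at 6 weeks and 98.0, 132, 164 and 155 CPM at 12 weeks. The KO and WT ranges stood far apart at both ages, and the 2 KO groups overlapped. The log2 change was 2.92 ± 0.24 at 6 weeks and 2.73 ± 0.24 at 12 weeks, or 7.57-fold and 6.62-fold. Without WT replicate 5_6 the 12-week change was 2.88, and without WT replicates 3 and 8 it was 2.69. The ratio of Apoe to Lpl, in CPM of each, was 46.8 ± 6.38 in 6-week WT and 24.0 ± 3.74 in 6-week KO, and 36.3 ± 8.83 in 12-week WT and 46.9 ± 6.31 in 12-week KO (SD, n = 4 each). All KO libraries had a lower ratio than any WT library at 6 weeks, and at 12 weeks the genotypes overlapped.

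Ch25h (ENSMUSG00000050370), the hydroxylase that makes 25-hydroxycholesterol, was low in WT. The WT libraries held 17.2, 25.6, 17.8 and 12.0 CPM at 6 weeks and 26.7, 17.3, 5.75 and 8.97 CPM at 12 weeks, the widest relative spread among the 8 testable genes. The KO libraries held 97.1, 74.3, 58.9 and 63.4 CPM at 6 weeks and 61.7, 102, 80.3 and 87.5 CPM at 12 weeks. The lowest KO library was above the highest WT library at both ages. The log2 change was 2.07 ± 0.37 at 6 weeks and 2.58 ± 0.38 at 12 weeks. Without WT replicate 5_6 the 12-week change was 2.32, and without WT replicates 3 and 8 it was 2.86. At 6 weeks the call was lost when WT replicate 3 or WT replicate 4 was left out, and the change was then 2.003 or 1.94. In GENCODE M21, 159 of the 1387 exon bases of Ch25h (11.5%) overlap exons of Gm26902 on the opposite strand. Gm26902 differed the same way, from 3.38 ± 1.28 to 12.7 ± 3.58 CPM at 6 weeks and from 3.40 ± 2.90 to 14.7 ± 3.90 CPM at 12 weeks. The strand setting of the counting is not given in the sources used here, so reads of the pair cannot be told apart in the shared bases.

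The sterol exporters differed less. Abca1 (ENSMUSG00000015243) moves cholesterol onto lipid-poor apolipoproteins. Its level at 6 weeks was 212, 138, 195 and 146 CPM in WT and 197, 202, 254 and 305 CPM in KO, with overlap. At 12 weeks it was 180.3, 188, 103 and 230.4 CPM in WT and 241, 239, 312 and 339 CPM in KO, where the groups did not overlap. The log2 changes of 0.47 ± 0.23 and 0.69 ± 0.23 did not pass the threshold, and the 12-week value was 0.52 without WT replicate 5_6 and 0.98 without WT replicates 3 and 8. Abcg1 (ENSMUSG00000024030), which moves cholesterol onto formed particles, held 422, 383, 445 and 335 CPM in 6-week WT and 640.5, 473, 537 and 539 CPM in 6-week KO. At 12 weeks it held 495, 469, 458 and 453 CPM in WT and 548, 651, 573 and 710.1 CPM in KO. The KO libraries lay above all WT libraries at both ages, yet the changes of 0.46 ± 0.11 and 0.40 ± 0.11 did not pass. The 12-week value was 0.41 without WT replicate 5_6 and 0.46 without WT replicates 3 and 8. With DESeq2 in place of edgeR, Abcg1 passed at both ages and Abca1 at 12 weeks.

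Soat1 (ENSMUSG00000026600), the enzyme that makes cholesterol esters for storage, lay at 133, 137, 167 and 127 CPM in 6-week WT and at 214, 193, 152 and 225 CPM in 6-week KO. At 12 weeks it lay at 147, 113, 133 and 87.3 CPM in WT and at 155, 158, 217 and 205 CPM in KO. One KO library fell inside the WT range at 6 weeks and none did at 12 weeks. The changes of 0.49 ± 0.17 and 0.61 ± 0.17 did not pass, and the 12-week value was 0.71 without WT replicate 5_6 and 0.58 without WT replicates 3 and 8. DESeq2 called the 12-week change.

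Fabp5 (ENSMUSG00000027533), a fatty acid chaperone, was close to the limit of detection. Its raw counts were 0, 2, 1 and 4 in 6-week WT and 8, 10, 5 and 4 in 6-week KO. They were 0 in all 4 libraries of 12-week WT, and 8, 29, 16 and 27 in 12-week KO. Against a floor of 3 counts over the 12-week WT group, 0.0576 CPM, the 12-week KO level was at least 39.2-fold higher, and at least 22.0-fold without WT replicate 5_6, the deepest library of that group. The ratio of pooled CPM was 2.76 at 6 weeks, with an exact 95% counting interval of 1.17 to 7.50 that covers counting error only. GENCODE M21 holds 2 processed pseudogenes nearly identical to Fabp5, Gm6166 (98.3% over 409 bases) and Gm14328 (97.3% over 408 bases), with 53 and 11 counts in all 16 libraries. The authors' handling of reads that match several genes is not given in the sources used here, so the split between these copies is uncertain.

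Trem2 (ENSMUSG00000023992), the lipid receptor, was abundant in all 4 groups. It held 1649, 1660.0, 1691 and 1647 CPM in 6-week WT and 1849, 1774, 1979.8 and 1752 CPM in 6-week KO. At 12 weeks it held 1801, 1872, 1659 and 1956 CPM in WT and 1942, 1859, 1804 and 1919 CPM in KO. The 6-week groups did not overlap, with a spread in WT of only 20.4 CPM (SD), and the 12-week groups did. The log2 changes of 0.15 ± 0.06 and 0.05 ± 0.06 did not pass the threshold, and the 12-week value was 0.03 without WT replicate 5_6. The largest 12-week change among the alternatives other than leaving out single libraries was 0.11, without WT replicates 3 and 8.

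Tyrobp (ENSMUSG00000030579), the adaptor through which TREM2 and other receptors signal, passed the threshold at both ages. The WT libraries held 494, 529, 459.5 and 464 CPM at 6 weeks and 575, 508, 525 and 691 CPM at 12 weeks. The KO libraries held 675, 618, 672 and 709 CPM at 6 weeks and 988, 943, 812 and 979.9 CPM at 12 weeks. No KO library reached down to the WT range at either age. The changes were 0.46 ± 0.10 and 0.69 ± 0.10. The 6-week call was kept in only 5 of the 16 refits that left out 1 library, and was lost with unscaled library totals (0.44). The 12-week call was kept in all 16 refits, with 0.67 without WT replicate 5_6, and the change was 0.89 without WT replicates 3 and 8.

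Per 100 CPM of Trem2 there were, at 6 weeks, 29.3 ± 2.08 CPM of Tyrobp in WT and 36.4 ± 2.87 in KO, and at 12 weeks 31.5 ± 3.36 in WT and 49.4 ± 2.94 in KO (SD, n = 4 each). All KO libraries had a higher ratio than any WT library of their age, and at 12 weeks the lowest KO library held 45.01. The pair of genes thus changed unequally, which is a description of the same contrasts.

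**Figure D2:**
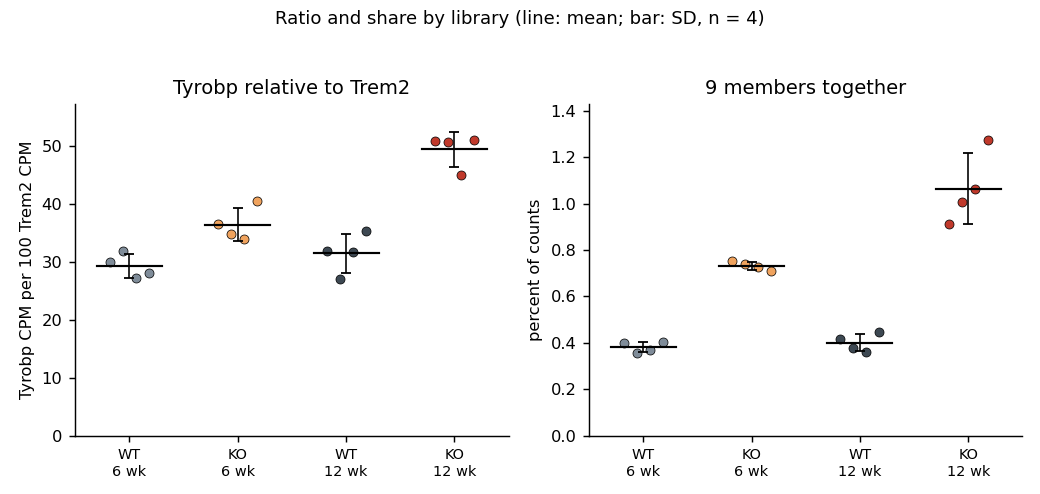
Left, Tyrobp CPM per 100 CPM of Trem2 in each library; right, the percent of a library's counts taken by all 9 genes, both on axes that start at 0, with points for libraries, a line for the mean and a bar for the SD (n = 4). The 12-week KO libraries lie highest in both panels, at 45.01 to 51.1 and at 0.913% to 1.27%.

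Levels of different genes were set side by side only per length, as CPM per kilobase of the longest coding transcript in GENCODE M21. In 6-week WT the order was Trem2 (1527 ± 18.8), Tyrobp (815 ± 54.2), Apoe (702 ± 172), Abcg1 (68.0 ± 8.31), Abca1 (16.9 ± 3.55) with Soat1 (16.9 ± 2.127), Ch25h (13.1 ± 4.03), Lpl (5.19 ± 1.34) and Fabp5 (0.201 ± 0.216). Tyrobp and Apoe did not differ beyond their spread there, and neither did Abca1, Soat1 and Ch25h. In KO Apoe stood first, at 2688 ± 176 at 6 weeks and 4538 ± 1006 at 12 weeks, and Trem2 followed at 1690.2 ± 94.4 and 1729 ± 56.9. At 12 weeks Tyrobp, at 1559 ± 137 in KO, lay below Trem2 by less than the sum of both SDs. With the length of all annotated exons in place of the transcript, Trem2 (336 CPM per kilobase in 6-week WT) stood below Tyrobp (729.6) and Apoe (463), and only in 12-week WT did it stay above Apoe (368 against 341). Its rank thus depends on the gene model, while Apoe stood first in KO with either length.

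**Figure D3:**
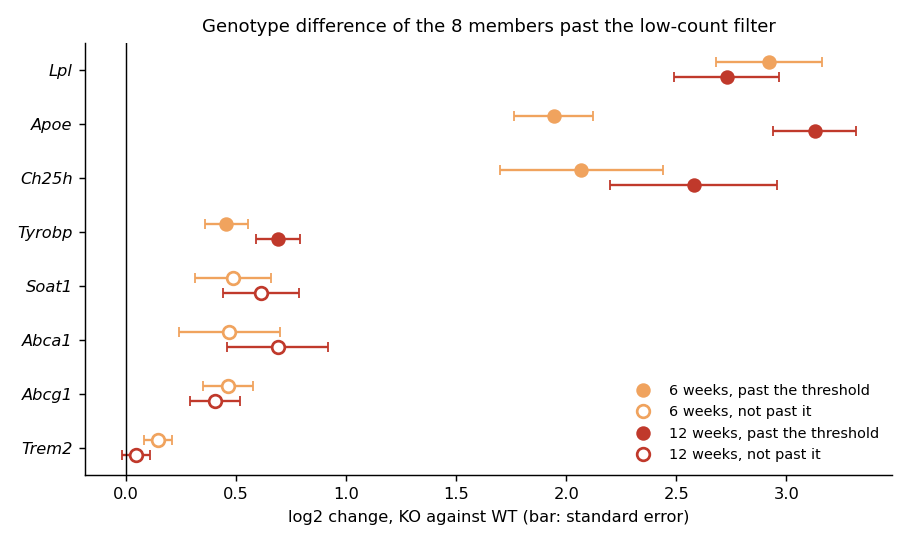
Log2 change of KO against WT for the 8 genes past the low-count filter, at 6 and 12 weeks; bars are standard errors and filled points passed the adjusted p threshold. Lpl, Apoe and Ch25h lie between 1.94 and 3.13, and the other 5 genes lie between 0.05 and 0.69.

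With age, none of the 8 genes passed the threshold of edgeR's test in WT or in KO, where 0.0117% and 0.0234% of all genes did, and in each genotype 2 of the 8, Apoe and Tyrobp, had an unadjusted p under 0.05, as did 7.44% of all genes in WT and 8.8% in KO. The choice of the genes used the levels at both ages, so these changes too are a description. These contrasts share libraries with the genotype contrasts and are no independent support. Among the 8, the change of Apoe between 6 and 12 weeks in KO was 0.74 ± 0.18 and that of Tyrobp was 0.46 ± 0.10, and for both every 12-week KO library was above every 6-week KO library. Such a rise without overlap was seen in 3.05% of all genes. DESeq2 called both changes, with 1.58% of all genes, and the refit without a low-count filter called that of Apoe, with 0.695%. In WT only Abcg1 rose without overlap, as 2.31% of all genes did. In WT the change of Apoe was -0.45 ± 0.17, and only the refit without a low-count filter, with 0.661% of genes, called it. The 12-week genotype change of Apoe exceeded the 6-week one by 1.19 ± 0.25, which did not pass. This test passed 0.00585% of all genes. DESeq2 (0.31%) and the refit without a low-count filter (0.45%) called the Apoe difference. For the other 7 genes the difference lay between -0.19 ± 0.32 (Lpl) and 0.51 ± 0.50 (Ch25h), none of which passed. In KO the pooled Fabp5 level was 4.56-fold higher at 12 than at 6 weeks (exact 95% counting interval 2.91 to 7.33).

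Females and males did not differ in any of the 8 genes past the threshold (adjusted p = 0.99994 each in edgeR's quasi-likelihood test, where 0.0293% of all genes passed), and none had an unadjusted p under 0.05, as 3.32% of all genes did. The changes, female against male, ran from -0.07 ± 0.08 for Tyrobp to 0.38 ± 0.27 for Ch25h, with -0.06 ± 0.13 for Apoe, -0.02 ± 0.17 for Lpl and 0.00 ± 0.05 for Trem2. Each 12-week group had only 1 female library, which limits this comparison. Replicate 5_6 of 12-week WT, which held both Xist and Y-linked transcripts, was counted as male by its label, which limits it further.

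The wider lipid pathways were read from lists. Over all genes tested, 0.872% passed in either direction at 6 weeks and 2.98% at 12 weeks. Most genes of these lists did not pass. The list of lysosomal lipid breakdown held the most that did, with 3 of 27 at 6 weeks and 4 of 27 at 12 weeks. Both are larger shares than over all genes. None of the other apolipoproteins and lipid transfer proteins (8 tested), the lipoprotein receptors (19), the regulators of lipoprotein lipase (7) or the genes of cholesterol synthesis (24) passed at either age. At an unadjusted p under 0.05 there were 1, 5, 1 and 0 at 6 weeks and 0, 5, 0 and 6 at 12 weeks, where 7.31% and 14.4% of all genes had one. DESeq2 called none at 6 weeks, and at 12 weeks 3 of the receptors and 2 of the synthesis genes. Their median log2 changes were 0.05, -0.05, -0.33 and 0.12 at 6 weeks and 0.20, 0.05, -0.28 and -0.06 at 12 weeks. Apoc1, the gene next to Apoe that encodes another apolipoprotein, lay at 0.340 ± 0.378 and 1.11 ± 0.911 CPM in WT and KO at 6 weeks and at 0.684 ± 0.920 and 2.55 ± 1.96 CPM at 12 weeks. Lrp1, a receptor of apolipoprotein E, changed by -0.22 ± 0.21 and -0.06 ± 0.21 without passing the threshold.

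Liver X receptors are the sterol-sensing nuclear receptors that drive Abca1, Abcg1, Apoe and Srebf1. Of 21 tested genes in their list, none passed at 6 weeks and 1 rose at 12 weeks, with medians of -0.04 and 0.08. The gene that rose was Myo1e, a myosin, with 37.6, 23.6, 27.1 and 23.2 CPM in 12-week WT and 50.9, 57.1, 88.0 and 67.8 CPM in 12-week KO (1.24 ± 0.15). The receptors themselves did not pass: Nr1h2 changed by -0.03 ± 0.25 and -0.38 ± 0.26, and Nr1h3 stayed below 4 CPM in every library. Srebf1, which drives fatty acid synthesis, changed by -0.04 ± 0.55 and 1.00 ± 0.57 without passing.

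Of 18 tested genes for oxysterol handling, 1 fell at 12 weeks. It was Gpr183, the receptor for 7α,25-dihydroxycholesterol, which is made from the product of CH25H. It held 619, 656, 499 and 598 CPM in 12-week WT and 478, 434, 391 and 438 CPM in 12-week KO, a change of -0.45 ± 0.10, and 0.00 ± 0.10 at 6 weeks. The call was lost in 8 of the 16 refits that left out 1 library, and without WT replicates 3 and 8. Cyp7b1, the enzyme between the product of CH25H and that ligand, was below the filter, with 0.890 ± 1.04 CPM in 6-week WT and no counts in 12-week WT.

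Of 27 tested genes of lysosomal lipid breakdown, 3 rose at 6 weeks (median 0.15) and 4 at 12 weeks (median 0.16). Grn, whose product progranulin supports lysosomal enzymes, rose by 0.67 ± 0.10 and 0.80 ± 0.10. Psap, the precursor of the saposins that activate sphingolipid hydrolysis, rose by 0.51 ± 0.07 and 0.62 ± 0.07. Npc2, which hands free cholesterol out of the lysosome, rose by 0.57 ± 0.11 and 0.70 ± 0.11, and its 6-week call was lost whenever any 1 of the 8 libraries at 6 weeks was left out. Hexa, a subunit of a ganglioside hydrolase, rose at 12 weeks alone, by 0.60 ± 0.09. The membrane partner of NPC2, Npc1, changed by -0.17 ± 0.17 and 0.00 ± 0.17, and the acid lipase gene Lipa by 0.20 ± 0.12 and 0.41 ± 0.12, without passing, though Lipa passed at 12 weeks without WT replicate 5_6 (0.54).

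Among 25 tested genes of cholesterol esters, triglycerides and droplets, none passed at 6 weeks, and 1 rose and 1 fell at 12 weeks. Nceh1, a hydrolase of cholesterol esters, rose by 1.55 ± 0.37, and Mgll, the lipase of monoacylglycerols, fell by 1.09 on the log2 scale (SE 0.23). The calls were lost in 6 refits without 1 library for Nceh1 and in 3 for Mgll, and both were lost without WT replicates 3 and 8. Plin2, which coats lipid droplets, changed by 0.51 ± 0.24 and 0.23 ± 0.23 without passing. Of 22 tested genes of fatty acid binding and oxidation, Cpt1c fell by 2.12 on the log2 scale (SE 0.53) at 12 weeks, a call kept in 2 of 16 refits. Of 18 other ABC lipid transporters, Abca9 fell by 0.52 (SE 0.13) and Abcb4 by 1.17 (SE 0.27) at 12 weeks, kept in 1 and 10 of 16 refits.

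**Figure D4:**
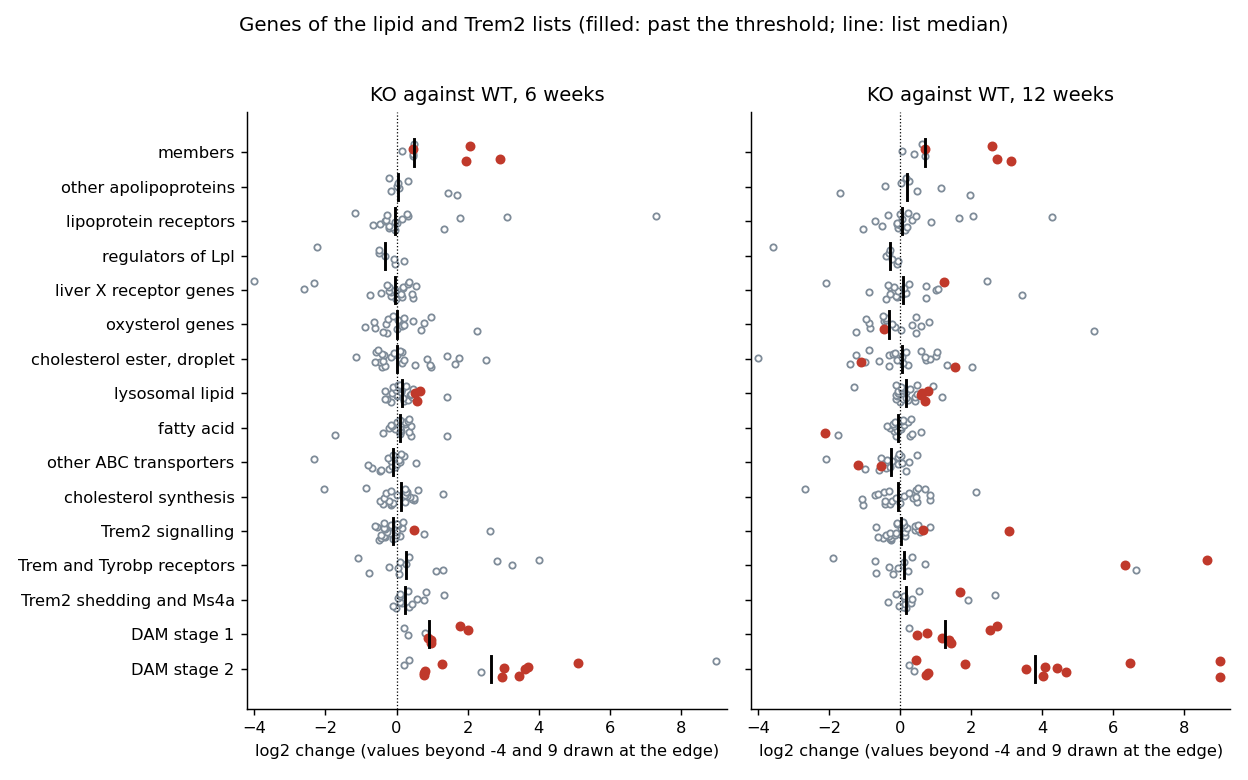
Log2 change of KO against WT for every tested gene of 15 lists and for the 8 genes described here, at 6 weeks (left) and 12 weeks (right); filled points passed the threshold, black lines are medians, and values beyond the axis are drawn at its edge. The medians of the lipid and signalling lists lie between -0.33 and 0.26, while those of the DAM lists lie between 0.92 and 3.79.

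Of 29 tested genes of signalling below TREM2 and TYROBP, 1 rose at 6 weeks and 2 at 12 weeks, with medians of -0.10 and 0.02. Lat2, an adaptor phosphorylated below TYROBP, rose by 0.49 ± 0.10 and 0.65 ± 0.10. Fgr, a Src family kinase, rose at 12 weeks by 3.07 ± 0.76, with 4.22, 12.0, 2.89 and 2.95 CPM in WT and 48.6, 36.2, 44.2 and 52.8 CPM in KO. Syk, the kinase that docks on TYROBP, changed by -0.50 ± 0.17 and -0.25 ± 0.17, Plcg2 by -0.10 ± 0.17 and -0.27 ± 0.17, and the phosphatase gene Inpp5d by -0.35 ± 0.17 and -0.30 ± 0.17, none past the threshold. Lat2 kept its 6-week call in 9 of 16 refits and Fgr its 12-week call in 5 of 16.

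The list of other TREM family genes, other receptors that pair with TYROBP, and the adaptor gene Hcst gave 13 tested genes. None of them passed at 6 weeks and 2 rose at 12 weeks. Cd300lb, an activating receptor of myeloid cells, had counts in 1 of 4 WT libraries at 12 weeks (1.48 CPM) and 7.58, 25.9, 17.5 and 53.4 CPM in KO. Its call was kept in 11 of the 16 refits without 1 library. Over those refits 0 to 2 genes of the list passed, and 1 did without WT replicates 3 and 8. Pilrb2, named after its values were seen because it lies below the level set for naming, had no counts in 12-week WT and 4.37 ± 1.81 CPM in KO, at least 77.4-fold above 3 counts in the group as a whole, or at least 43.5-fold without WT replicate 5_6. The sister adaptor Hcst changed by 0.08 ± 0.41 and -0.20 ± 0.41 without passing. Of 14 tested genes that shed, cut or modify TREM2, Ms4a6c rose at 12 weeks by 1.69 ± 0.24. The sheddase genes Adam10 (-0.01 ± 0.17 and 0.16 ± 0.17) and Adam17 (0.35 ± 0.10 and 0.08 ± 0.10) did not pass.

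The DAM genes other than the 9 were counted in 2 lists, written with earlier results of these data known. Timp2 stands in both lists and is counted in each. Of 8 genes of the stage described as independent of TREM2, 5 rose at 6 weeks and 7 at 12 weeks, with medians of 0.92 and 1.28. Lyz2, a lysozyme, rose by 2.03 ± 0.17 and 2.54 ± 0.17, H2-D1, a heavy chain of MHC class I, by 1.79 ± 0.17 and 2.73 ± 0.18, and B2m, its light chain, by 0.98 ± 0.12 and 1.43 ± 0.12. Of 14 genes of the stage described as dependent on TREM2, 10 rose at 6 weeks and 12 at 12 weeks, with medians of 2.67 and 3.79 that were the same when genes with an empty group were set to their bound. Without WT replicates 3 and 8 the 12-week count was 9. Spp1, which encodes the secreted protein osteopontin, rose by 5.12 ± 0.73 and 6.46 ± 0.78. Itgax, the integrin CD11c, rose by 3.62 ± 0.75 and 3.56 ± 0.73, and Lilrb4a, an inhibitory receptor, by 3.69 ± 0.69 and 4.08 ± 0.70. The 6-week calls were kept in 10 of 16 refits for Itgax and in 12 of 16 for Lilrb4a. Axl, a receptor for apoptotic cells, rose by 2.97 ± 0.36 at 6 weeks and had no counts in 12-week WT, where the KO level of 169 ± 48.5 CPM was at least 2979-fold above 3 counts in the group as a whole, or at least 1674-fold without WT replicate 5_6. Csf1, a growth factor of microglia, rose by 4.67 ± 0.74 at 12 weeks. Trem2 itself did not pass at either age beside these genes.

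Likeness across the 16 libraries was ranked over 11200 other genes with a mean of at least 5 CPM, as Pearson's r of log2(CPM + 1). The libraries fall into groups, so r mainly restates the group differences, and it is given as a description. The genes most like Apoe were Ctsb (r = 0.97), Cd63-ps (0.97), Cst7 (0.97), H2-D1 (0.96) and Il1rn (0.96). Those most like Lpl were Il1rn (0.97), Mmp12 (0.97), Apoe (0.95), Ctsb (0.95) and Il2rg (0.95). Those most like Trem2 were Batf (0.87), Stx7 (0.85), Ubxn11 (0.85), Rpl21 (0.85) and H2az2 (0.82). Lpl ranked 14 for likeness to Apoe and Trem2 ranked 1192.

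For pairs of the 8 genes, r was also computed after the group means were taken out. Over the 28 pairs of the 8 genes the median r was 0.71 across all libraries and 0.15 on the deviations. The highest pair on the deviations was Apoe with Lpl (0.61), followed by Trem2 with Tyrobp (0.49), and the lowest was Trem2 with Soat1 (-0.63). All of these share the same 16 libraries and their scaling.

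**Figure D5:**
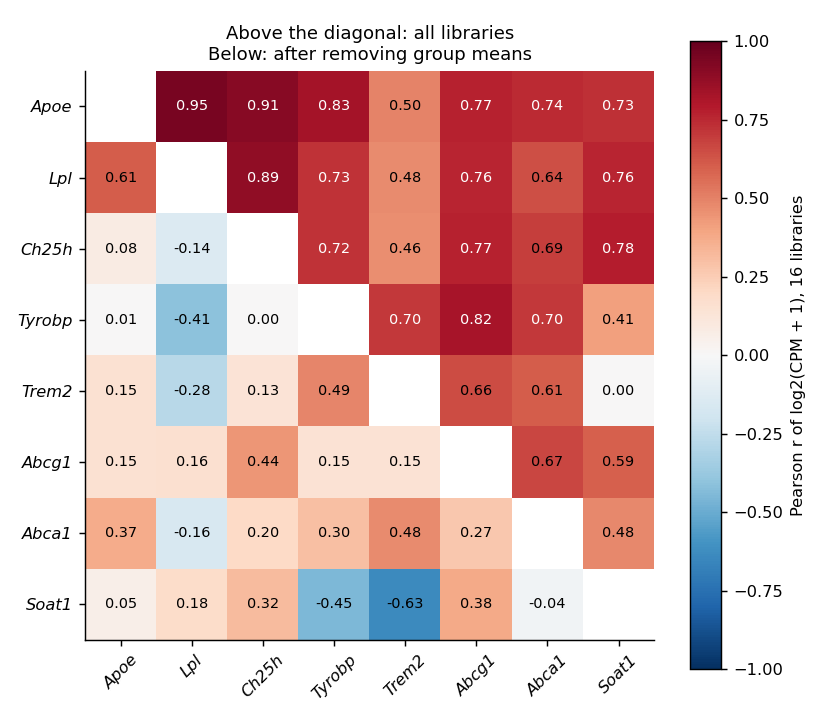
Pearson's r of log2(CPM + 1) for each pair of the 8 genes, over all 16 libraries above the diagonal and on deviations from the group means below it; colour runs from -1 to 1. Values above the diagonal run from 0.00 to 0.95, and those below it from -0.63 to 0.61.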

How the data were processed

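RNA was measured in 16 libraries of sorted mouse microglia, 4 in each of 4 groups of genotype and age, grouped by the titles in the labels. Per gene and library the authors deposited unnormalized counts, in 53700 lines with an Ensembl identifier and a symbol, of which 29343 had a count in at least 1 library. A deposited table of the whole series held the same counts for 36935 compared symbols (100% equal, exact match) and was not used further. The build is GRCm39 and the tools are HTSeq 0.11.0, Picard 2.13.2, SAMtools 1.10, TopHat, cutadapt 2.10 and FastQC 0.11.9, per the submitters' processing notes. Not given in the sources used here are how strand and multi-mapped reads were treated and which annotation release was counted.

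Counts were tested in R 4.3.3 with edgeR 4.0.16 (robust quasi-likelihood fit, terms for group and sex, all 16 libraries, TMM scaling, filterByExpr by group with a minimum count of 10, 17090 genes), with Benjamini-Hochberg adjustment over all genes and a threshold of 0.05. Comparisons (6) set KO against WT at each age, 12 against 6 weeks in each genotype, the difference of the genotype effects, and sex. SE was computed from the log2 change and its F statistic (change over root F, unsigned). Levels are CPM on scaled library sizes. Exact counting intervals (95%) and floors of 3 counts cover counting error only, because reads without molecular identifiers are not independent molecules. Alternatives were DESeq2 1.42.0 (also its size factors in edgeR), no scaling factor, no low-count filter, no sex term, a replicate block, the compared groups alone, leaving out each library in turn, and leaving out WT replicates 3 and 8 at 12 weeks. The fit was tested on simulated data. Close copies of the genes were sought with BLAST 2.17.0 among GENCODE M21 transcripts (95% identity over at least 200 bases).

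The 9 genes and the gene lists were chosen with earlier results of these data known. Beside the 9, genes were named by a fixed rule: 18 genes whatever their result (1 of which is not reported here), and up to 3 genes per list and genotype comparison of at least 5 CPM on average with the largest change among those that passed. For likeness, the 5 genes with the highest r were named. Outside this rule, Hexa, Pilrb2 and single markers from the lists of cell types were also named, with their values known. Marker lists of other cell types were summed. Neutrophils reached at most 75.2 CPM, neurons 209, oligodendrocytes 348, endothelial and mural cells 82.3 and erythroid cells 110.1 CPM in any library. At 12 weeks erythroid markers summed to 2.38 to 34.2 CPM in WT and 13.2 to 110.1 in KO. All 5 had a positive log2 change (median 3.07), and none passed in edgeR. Of 5 endothelial and mural markers tested (median -0.49), 1 passed as higher at 12 weeks, beside 2.03% of all genes. None of them passed without WT replicates 3 and 8. Flt1, of that list, had 0 counts in 12-week WT and 240 in 12-week KO. The part of these cells was not tested. The lymphocyte sum, at most 1152 CPM, rested almost wholly on Ighm.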

Additional observations from a re-analysis of the deposited data

Results flagged for a closer look

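Over 184 groups of 4 libraries, for 46 named genes, 8 held a library whose gap to the nearest other exceeded Dixon's critical share of the range. Chance alone flags about 1 in 20 such groups, and none of the 9 genes of lipid handling was among them. Nr1h2 was low in replicate 3 of 12-week WT, at 59.6 CPM beside 125 to 129 in the others, and Npc2 was high in the same library, at 1082.5 CPM beside 773 to 810.1. Fgr was high in replicate 4 of 12-week WT, at 12.0 CPM beside 2.89 to 4.22. Hcst was low in replicate 3 of 6-week KO, at 5.44 CPM beside 10.3 to 10.98. Apoc1 was high in replicate 4 of 6-week KO, at 2.47 CPM beside 0.584 to 0.746. Cyp7b1 had counts in 1 library of 6-week KO (replicate 4, 1.67 CPM) and of 12-week KO (replicate 2, 0.106 CPM), and Cd300lb in 1 library of 12-week WT (replicate 8, 1.48 CPM).

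Axl differed between the ages in its genotype effect, by 10.98 on the log2 scale in edgeR's quasi-likelihood test. The 12-week WT group had no counts for Axl, so this fitted value depends on the prior count and is no bound.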

How the results depend on the processing

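Apoe and Lpl passed at both ages, and Ch25h and Tyrobp at 12 weeks, under all 24 alternatives. Of the single-gene results, 21 changed sign under some alternative (95 settings), none of them past the threshold with or without it. Of the 9 genes, between 2 and 4 passed at 6 weeks and between 4 and 6 at 12 weeks when 1 library was left out, with 2 at 6 weeks without WT replicate 3 or 4. Without a low-count filter, and with DESeq2, 7 passed at 12 weeks. With age, no filter gave 1 in WT, 1 in KO and 1 in the difference of effects, and DESeq2 gave 2 in KO and 1 in the difference.

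Over all genes the counts moved further. Without a filter the comparisons called 353 (6 weeks), 1073 (12 weeks), 194 (age in WT), 204 (age in KO), 132 (difference) and 22 (sex) genes, and with DESeq2 366, 1157, 150, 270, 53 and 26, against 149, 510, 2, 4, 1 and 5 in the analysis reported. With the replicate block, which drops the sex term, 12 weeks gave 181, age in WT 0, age in KO 1 and the difference 2. Fitting only the 2 groups compared gave 204 at 12 weeks and 0 for age in either genotype. Leaving out WT replicates 3 and 8 gave 307 at 12 weeks, 10 for age in KO and 2 for the difference. Age in KO gave 16 without the sex term, and the difference 2 without a scaling factor. The cause was not tested.

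Leaving out 1 library gave 82 to 155 genes at 6 weeks, 328 to 464 at 12 weeks, 1 to 4 for age in WT, 1 to 7 for age in KO, 1 to 2 for the difference and 4 to 7 for sex. The 12-week count was lowest without KO replicate 2, and the 6-week count fell below 100 without any 6-week library but KO replicate 4. Deviations of same-numbered libraries from their group means, over all genes tested, correlated at -0.0245 to 0.0559. At 6 weeks same-numbered WT and KO libraries had the same labelled sex, and they correlated at -5.5e-06 to 0.0559. The measure can thus miss a shared factor, and it cannot decide whether the numbers pair the libraries. With the block the 12-week change of Ch25h was 1.78. Depth limits Fabp5 most.

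The changes of sign are given as the range over leaving out 1 library. At 6 weeks they were Adam10 (-0.089 to 0.063), Gpr183 (-0.060 to 0.069), Hcst (-0.22 to 0.31), Nr1h2 (-0.19 to 0.14), Plcg2 (-0.19 to 0.0039) and Srebf1 (-0.47 to 0.23). At 12 weeks they were Hcst (-0.34 to 0.022), Lrp1 (-0.20 to 0.20) and Npc1 (-0.12 to 0.14). For age they were Lpl (-0.18 to 0.11) and Abca1 (-0.14 to 0.19) in WT and Soat1 (-0.18 to 0.058) in KO. The difference of effects changed sign for Abcg1 (-0.11 to 0.048). For sex they were Apoe (-0.17 to 0.021), Lpl (-0.13 to 0.062), Abca1 (-0.070 to 0.070), Abcg1 (-0.081 to 0.012) and Trem2 (-0.020 to 0.029). The replicate block gave -0.12 for Adam10 and 0.022 for Hcst at 12 weeks. It gave 0.45 for Ch25h and -0.060 for Abca1 with age in WT, and -0.27 for the Ch25h difference. Without WT replicates 3 and 8, Lrp1 was at 0.094 and Npc1 at 0.067 at 12 weeks, and Lpl at 0.00022 and Abca1 at -0.27 with age in WT. Unscaled totals gave -0.014 for Gpr183 at 6 weeks, 0.0016 for Lpl with age in WT and -0.0085 for Trem2 by sex. Without a filter Gpr183 was at -0.0042 at 6 weeks, Npc1 at 0.020 at 12 weeks and Abca1 at -0.0073 with age in WT. Npc1 at 12 weeks was at 0.012 with DESeq2, at 0.012 with its size factors, at 0.0060 in the 2 groups alone and at 0.00031 without the sex term.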
